A study of Mus musculus with 14 samples.

Results

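The Wnt ligands of the mouse mammary gland, their receptors and the factors that read the signal were followed over 14 Agilent 2-colour expression arrays of sorted mammary cells. Members were taken by name: probes that the scanner files call a Wnt ligand or a Frizzled receptor, and probes for Lrp5, Lrp6, Ror2, Porcn, Ctnnb1, Axin2, Tcf7, Lef1, Tcf7l1 and Tcf7l2. That gave 59 of 41174 probes and 39 genes: 19 ligands, 10 Frizzled receptors, 3 co-receptors, 6 genes that act in or report from the nucleus, and Porcn. Tcf7l1 carries its older name Tcf3 in the files and was recognised by its accession. Of the 39 genes, 37 were among the 23650 genes tested, each by its brightest probe. Wnt2b and Wnt8a were not, because their probes were not well above background on both arrays of any group.

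The groups were P4, P5 and P6 cells of pregnant mice, P4, P5 and P6 cells of virgin mice (2 arrays each), and GFPhi and GFPlo cells of virgin mice (1 array each). The mice of the P4, P5 and P6 groups were wild-type FVB/N-J. P4 cells are labelled CD24+CD29hi and enriched for mammary stem cells (MaSC), P5 cells are labelled as enriched for luminal progenitors, and P6 cells, CD24lo, as differentiated mammary epithelial cells. The titles give P5 the CD24+CD29hi gate of P4. GFPhi and GFPlo cells were lineage-negative cells of the luciferase transgenic line L2G85 on FVB/N, labelled as enriched and depleted of MaSC. The stage of pregnancy, the number of mice per array and the promoter of the transgene are not given in the labels. Nothing in the labels says that the arrays of a group came from separate mice, so the p-values measure the spread between these arrays, which may be technical.

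Each value below is a log2 ratio of the sorted cells (Cy5) over a common reference RNA made from 11 mouse cell lines (Cy3). A value of 0 means the level of that mix, and values of different genes cannot be ranked against each other. The median Cy5 intensity was 70.9 to 196 per array over a local background of 32 to 34.5, with 66.4% to 86.7% of probes read as well above background. There were 3 scans. The first took replicate 1 of the virgin groups with the GFP arrays, the second (scan 2) replicate 2 of the 6 replicated groups, and the third (scan 3) replicate 1 of the pregnant groups, so pregnancy and scan coincide in part. Only scan 3 was read without extended range. It had 236, 111 and 199 saturated Cy5 spots in P4, P5 and P6, against 0 to 15 on the other arrays. Pregnant P4 replicate 2 shared slide 2 with the virgin replicate 2 arrays, while pregnant P5 and P6 replicate 2 were on slide 4. Population and slide thus coincide in part in pregnant mice. The median SD between the 2 arrays of a group, over members, was 0.209 to 0.288 in the pregnant groups and 0.127 to 0.229 in the virgin groups.

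Markers were set against the labels. The median log2 ratio of 14 basal epithelial markers (Krt14 and Trp63 among them) was 4.56, 1.47 and 0.82 in pregnant P4, P5 and P6 and 4.5, 0.68 and 1.17 in virgin P4, P5 and P6. For 14 luminal markers it was 1.31, 1.76 and -0.3 in the pregnant populations and 1.44, 4.19 and 0.46 in the virgin ones. For 10 fibroblast markers (Col1a1 and Pdgfra among them) it was -1.14, -1.81 and 4.59 in the pregnant populations and -0.82, -2.31 and 4.69 in the virgin ones, and all 10 were well above background in every group. P6 therefore carried fibroblast markers at a high level, against its label as differentiated epithelium. The median of 8 pericyte markers was 3.24 in pregnant and 3.46 in virgin P6. Single luminal markers in P6 went both ways. The keratin Krt18 was at -3.58 in pregnant and -0.9 in virgin P6, while Esr1 was at 3.09 and 3.71 and Elf5 at 2.36 and 3.49. GFPlo had a fibroblast median of 3.77, and GFPhi 0.98. P6 and GFPlo are called by those names here, without a cell type.

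Wnt proteins are short-range signals. Porcn attaches the lipid that they need for secretion and receptor binding, and a secreted ligand then binds a Frizzled receptor together with Lrp5 or Lrp6 or, in the branch that does not use beta-catenin, with Ror2. In the canonical branch beta-catenin (Ctnnb1) is spared from destruction, enters the nucleus and binds the TCF/LEF factors Tcf7, Lef1, Tcf7l1 and Tcf7l2, and Axin2 is a target that feeds back on the pathway. In the mouse mammary gland Wnt1 is the classic site of tumour virus insertion, Wnt4 acts downstream of progesterone in the branching of pregnancy, and Wnt signals sustain basal stem cells.

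The promoters of 4 members are shown because they stand for the patterns that follow: Wnt4, a ligand whose response to pregnancy ran opposite ways in P4 and P5; Wnt2, the ligand with the largest range over arrays; Fzd1, the receptor called in the most comparisons; and Axin2, the target gene. Each is the 300 bases from 250 before to 50 after the start site in RefSeq on GRCm38.p6, written 5′ to 3′ on the strand of the gene. Capitals mark a match to the core TCF/LEF motif CTTTGA, or TCAAAG on the other strand. Wnt4 lies at chr4:137277385-137277684 (+), Wnt2 at chr6:18030396-18030695 (-), Fzd1 at chr5:4758167-4758466 (-) and Axin2 at chr11:108920099-108920398 (+).
Wnt4: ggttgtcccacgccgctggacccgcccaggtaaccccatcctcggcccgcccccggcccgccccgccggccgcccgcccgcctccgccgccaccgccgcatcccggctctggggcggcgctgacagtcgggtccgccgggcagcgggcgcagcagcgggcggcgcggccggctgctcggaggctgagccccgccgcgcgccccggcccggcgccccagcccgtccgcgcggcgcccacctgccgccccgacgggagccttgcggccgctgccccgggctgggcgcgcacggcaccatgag
Wnt2: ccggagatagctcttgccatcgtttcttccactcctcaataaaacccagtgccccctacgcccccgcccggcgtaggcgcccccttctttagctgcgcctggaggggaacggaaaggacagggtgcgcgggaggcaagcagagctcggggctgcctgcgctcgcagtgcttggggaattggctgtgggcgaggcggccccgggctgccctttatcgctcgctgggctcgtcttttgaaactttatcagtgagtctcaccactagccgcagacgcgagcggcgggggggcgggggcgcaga
Fzd1: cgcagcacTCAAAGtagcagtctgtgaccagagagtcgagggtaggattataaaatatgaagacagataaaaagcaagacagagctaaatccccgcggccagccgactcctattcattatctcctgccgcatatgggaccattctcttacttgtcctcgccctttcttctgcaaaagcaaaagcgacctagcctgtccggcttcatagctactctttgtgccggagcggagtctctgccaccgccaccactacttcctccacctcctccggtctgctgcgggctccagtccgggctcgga
Axin2: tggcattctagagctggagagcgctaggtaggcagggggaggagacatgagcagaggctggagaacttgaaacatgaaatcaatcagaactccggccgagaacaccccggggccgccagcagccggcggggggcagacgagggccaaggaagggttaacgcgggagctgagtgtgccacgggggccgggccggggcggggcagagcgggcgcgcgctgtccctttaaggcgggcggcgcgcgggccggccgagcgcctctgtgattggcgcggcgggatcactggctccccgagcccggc
The motif was searched for in 32851 promoter windows, and 16% of them held it. Of 37 windows of 28 members, 4 held it (10.8%), those of Fzd1, Wnt11, Wnt5b and Lef1, and in Fzd1 it begins at position -242 from the start site. The Wnt4 window is 84.3% G and C, against 65.7% for Wnt2, 54% for Fzd1 and 70% for Axin2. The median G and C content was 70.7% over the member windows and 52.7% over all windows. Windows for Fzd2, Fzd3, Fzd6, Fzd8, Lrp5, Lrp6, Porcn, Wnt10a, Wnt5a, Wnt7b and Wnt8a were not used here.

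Probes of related members are shown because the families share sequence, which bears on how a probe can be read. The array's probes are 60 bases long. On the mm7 (NCBI35) build named in the file headers, the probe of Wnt4 spans chr4:136674216-136674784 (+) and that of Wnt5a chr14:25948244-25952114 (+), so both cross an exon junction. The coding-sequence probe of Fzd7 lies at chr1:59735681-59735740 (+) and that of Fzd2 at chr11:102715340-102715399 (+). Capitals mark the bases that are identical within each pair when they are aligned without gaps.
Wnt4: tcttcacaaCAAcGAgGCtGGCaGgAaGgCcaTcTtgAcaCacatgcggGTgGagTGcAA
Wnt5a: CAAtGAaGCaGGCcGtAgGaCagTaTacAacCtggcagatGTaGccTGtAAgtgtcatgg
Fzd7: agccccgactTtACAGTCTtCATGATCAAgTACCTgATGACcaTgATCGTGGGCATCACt
Fzd2: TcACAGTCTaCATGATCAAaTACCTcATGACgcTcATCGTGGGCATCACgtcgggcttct
The Wnt4 and Wnt5a probes share 25 of 51 aligned bases (49%). The Fzd7 and Fzd2 probes share 42 of 50 (84%), so the second Fzd7 probe and the Fzd2 probe target nearly the same stretch of 2 receptors.

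Between P4 and P5 most called members were higher in P4. Of 37 members, 15 passed the threshold in pregnant mice (40.5%), 13 higher and 2 lower in P4, beside 22.6% of all genes (11.7% higher and 10.9% lower; adjusted p under 0.05, limma). In virgin mice 14 passed (37.8%), 11 higher and 3 lower in P4, beside 11.4% of all genes (6.56% higher and 4.8% lower). The median difference over members was 0.51 in pregnant and 0.15 in virgin mice, against -0.05 and 0.03 over all genes. Fzd1, Fzd2, Fzd7, Fzd9, Tcf7l1, Wnt6, Wnt9a, Wnt10a and Wnt11 were higher in P4 than in P5 in both conditions. Markers of other cells moved with this comparison. Of 10 endothelial markers, 6 were higher in pregnant P4 (median difference 2.09) and 3 in virgin P4 (1.57), and of 8 pericyte markers, 6 were higher in pregnant P4 (2.25) and 4 in virgin P4 (1.73), with none lower. The endothelial median level was 3.07 in P4 and 1.24 in P5 of pregnant mice, and 3.34 in P4 and 1.35 in P5 of virgin mice. Their part in the members' differences was not tested.

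Between P5 and P6 most called members were lower in P5. In pregnant mice 12 members passed (32.4%), 1 higher and 11 lower in P5, beside 26.9% of all genes (13.8% higher and 13.2% lower). In virgin mice 13 passed (35.1%), 4 higher and 9 lower in P5, beside 16.1% of all genes (7.32% higher and 8.82% lower). Between P4 and P6 the calls ran both ways. In pregnant mice 12 passed (32.4%), 6 higher and 6 lower in P4, beside 12.1% of all genes (6.2% higher and 5.87% lower). In virgin mice 9 passed (24.3%), 5 higher and 4 lower in P4, beside 10.3% of all genes (4.88% higher and 5.44% lower). The share of members was above that of all genes in the 6 comparisons, but near it for pregnant P5 against P6 (32.4% beside 26.9%). The 3 comparisons of a condition use the same arrays, so they do not repeat one another independently. Every difference called in the 6 comparisons had the same sign in both replicates. The calls were made from those same arrays, so the shared sign is no separate support. With the replicate number as a block, 20 members and 10471 of all genes passed between pregnant P5 and P6, and 17 members and 5167 of all genes between virgin P4 and P6. Median centring in place of loess left calls of 10 higher and 0 lower for pregnant P4 against P5, and 3 higher and 1 lower for virgin P4 against P6.

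**Figure D1:**
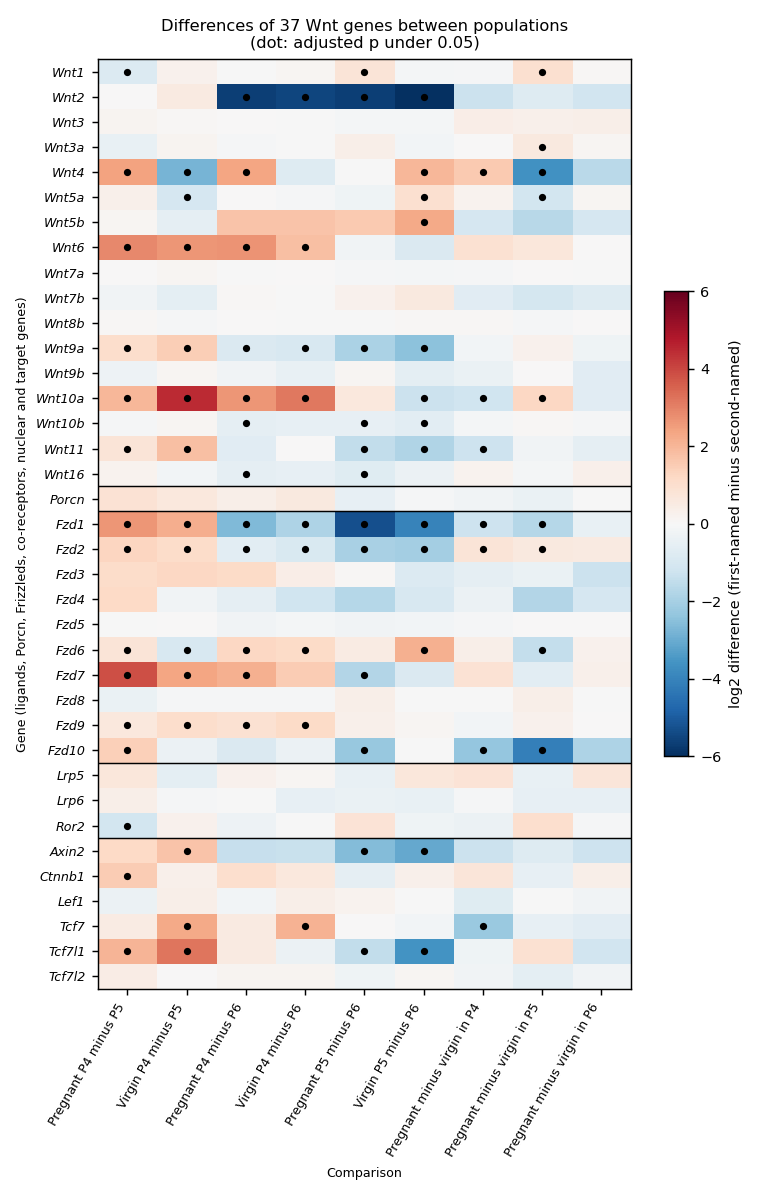
Colour map of the log2 difference (first-named minus second-named group) of the 37 tested members, 1 line per gene by role and 1 column per comparison, red for positive and blue for negative values, with a dot where the adjusted p was under 0.05. The darkest blue cells are Wnt2 and Fzd1 in pregnant P5 minus P6 (-5.66 and -5.28) and Wnt2 in the other comparisons with P6, while Wnt10a and Wnt6 are red for P4 against both other populations.

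Each call was repeated under 22 alternatives: 10 other settings of the processing or the model, and 12 fits without 1 array each. Calls that passed in all 22 are described as held throughout, and for the others the weak points are given. In bulk samples such as these, fewer cells of a type and less RNA per cell cannot be told apart.

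Among the ligands, P4 was set apart by Wnt10a and Wnt6, neighbours on chromosome 1 with no protein-coding gene between them. Wnt10a, a ligand of the beta-catenin branch, had log2 ratios of 0.02 and 0.49 in pregnant P4, -1.65 and -1.85 in pregnant P5 and -2.75 and -2.04 in pregnant P6. In virgin mice it had 1.60 and 1.31 in P4, -3.01 and -3.0 in P5 and -1.69 and -1.74 in P6. P4 lay above the other populations in both conditions with no overlap. Wnt10a was 4-fold higher in P4 than in P5 of pregnant mice (log2 difference 2.0 ± 0.247 (SE), adjusted p = 0.00078) and 22-fold higher in virgin mice (log2 difference 4.46 ± 0.247 (SE), adjusted p = 3.16e-05). Over P6 it was 6.27-fold higher in pregnant P4 (log2 difference 2.65 ± 0.247 (SE), adjusted p = 0.000221) and 9.02-fold higher in virgin P4 (log2 difference 3.17 ± 0.247 (SE), adjusted p = 0.000109). These 4 calls held throughout. Virgin P5 was also 2.44-fold below virgin P6 (log2 difference -1.29 ± 0.247 (SE), adjusted p = 0.00742), so the order in virgin mice was P4, P6, P5.

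Wnt6, a second ligand of the beta-catenin branch, followed the same populations. It had 2.59 and 3.39 in pregnant P4, 0.18 and 0.04 in P5 and 0.21 and 0.39 in P6, and 1.83 and 2.37 in virgin P4, -0.58 and -0.53 in P5 and 0.14 and 0.45 in P6. Both P4 arrays lay above every P5 and P6 array. The difference from P5 was 7.37-fold in pregnant mice (log2 difference 2.88 ± 0.275 (SE), adjusted p = 0.000231) and 6.29-fold in virgin mice (log2 difference 2.65 ± 0.275 (SE), adjusted p = 0.000496). The difference from P6 was 6.46-fold in pregnant mice (log2 difference 2.69 ± 0.275 (SE), adjusted p = 0.000356) and 3.49-fold in virgin mice (log2 difference 1.80 ± 0.275 (SE), adjusted p = 0.0035). The first 3 of these held throughout, and the last passed in 21 of 22 alternatives. A second Wnt6 probe gave larger differences of the same sign, 4.36 and 4.40 for pregnant P4 over P5 and P6, and 3.95 and 2.44 for virgin P4. Over the 14 arrays Wnt6 and Wnt10a correlated at r = 0.881, a description over arrays that share groups and scans. The other neighbouring pairs gave -0.238 (Wnt1 and Wnt10b), -0.267 (Wnt9a and Wnt3a) and -0.639 (Wnt3 and Wnt9b). The basal marker median was 4.56 in pregnant and 4.5 in virgin P4, and at most 1.47 in P5 and P6. Its part in the Wnt10a and Wnt6 results was not tested.

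Wnt4, the ligand of side-branching in pregnancy, was highest in different populations in the 2 conditions. In pregnant mice it had 0.74 and 0.81 in P4, -1.94 and -1.32 in P5 and -1.94 and -1.26 in P6. In virgin mice it had -0.63 and -0.96 in P4, 1.77 and 2.20 in P5 and -0.25 and 0.24 in P6. So P4 stood above the other populations in pregnant mice, and P5 did in virgin mice. Pregnant P4 exceeded P5 5.3-fold (log2 difference 2.41 ± 0.305 (SE), adjusted p = 0.000865) and P6 5.17-fold (log2 difference 2.37 ± 0.305 (SE), adjusted p = 0.00121). Virgin P4 was 6.88-fold below P5 (log2 difference -2.78 ± 0.305 (SE), adjusted p = 0.000663), and virgin P5 was 3.97-fold higher than virgin P6 (log2 difference 1.99 ± 0.305 (SE), adjusted p = 0.00222). All 4 calls held throughout. The probe shown above crosses an exon junction and shares 49% of its aligned bases with the Wnt5a probe.

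Wnt5a and Wnt5b, ligands best known for signalling without beta-catenin, were also high in virgin P5. Wnt5a had 1.0 and 1.28 in virgin P5, against 0.09 and 0.18 in virgin P4 and 0.01 and 0.41 in virgin P6. P4 was 2.01-fold lower than P5 (log2 difference -1.01 ± 0.259 (SE), adjusted p = 0.0399), and P5 was higher than P6 (log2 difference 0.94 ± 0.259 (SE), adjusted p = 0.0409). No fold is given against P6, where the probe was well above background on only 1 of the 2 virgin arrays. These calls were weak: without any 1 of 6 arrays the first did not pass (adjusted p 0.0592 to 0.224), and without any 1 of 8 arrays the second did not (adjusted p 0.0595 to 0.23). With the scanner's own log ratio they were -2.32 (adjusted p = 0.29) and 2.09 (adjusted p = 0.299). Wnt5b had 3.57 and 4.32 in virgin P5 and 3.26 and 3.56 in virgin P4, against 1.54 and 1.85 in virgin P6. Of these only P5 over P6 was called, 4.75-fold (log2 difference 2.25 ± 0.574 (SE), adjusted p = 0.0292), and it did not pass without any 1 of 6 arrays (adjusted p 0.0507 to 0.185). A second Wnt5b probe gave 1.85 for this comparison (adjusted p = 0.0312). In pregnant mice Wnt5b had 1.82 and 2.98 in P4, 1.41 and 3.17 in P5 and 0.49 and 0.92 in P6, where P4 and P5 overlap and no difference was called.

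Wnt2, a ligand of the beta-catenin branch, had the widest range of any member, from 0.12 to 7.32. It had 5.06 and 6.70 in pregnant P6 and 7.32 and 6.75 in virgin P6. The other populations were far lower, with 0.12 and 0.38 in pregnant P4, 0.13 and 0.31 in pregnant P5, 1.32 and 1.77 in virgin P4 and 1.05 and 0.97 in virgin P5. P4 was 49.5-fold lower than P6 in pregnant mice (log2 difference -5.63 ± 0.455 (SE), adjusted p = 0.000102) and 44.9-fold lower in virgin mice (log2 difference -5.49 ± 0.455 (SE), adjusted p = 0.000145). P5 was 50.4-fold lower than P6 in pregnant mice (log2 difference -5.66 ± 0.455 (SE), adjusted p = 4.71e-05) and 65.2-fold lower in virgin mice (log2 difference -6.03 ± 0.455 (SE), adjusted p = 4.24e-05). All 4 calls held throughout. The fibroblast marker median moved with it, at 4.59 and 4.69 in P6 and at -0.82 or below in P4 and P5, and its part in the Wnt2 result was not tested.

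Wnt9a, known from joint formation, was also highest in P6 among P4, P5 and P6. It had 0.01 and 0.22 in pregnant P4, -1.01 and -0.83 in P5 and 0.63 and 1.36 in P6, and 0.28 and 0.31 in virgin P4, -1.18 and -1.19 in P5 and 1.26 and 1.24 in P6. The order P6, P4, P5 was the same in both conditions. P5 was 3.76-fold lower than P6 in pregnant mice (log2 difference -1.91 ± 0.218 (SE), adjusted p = 0.00032) and 5.41-fold lower in virgin mice (log2 difference -2.44 ± 0.218 (SE), adjusted p = 0.000111). P4 was 2.78-fold higher than P5 in virgin mice (log2 difference 1.47 ± 0.218 (SE), adjusted p = 0.00311). These 3 calls held throughout. P4 over P5 in pregnant mice, 1.04 (adjusted p = 0.0103), did not pass without pregnant P4 replicate 2 or pregnant P5 replicate 1 (adjusted p 0.055 to 0.0561). P4 against P6 was -0.88 (adjusted p = 0.0334) in pregnant and -0.96 (adjusted p = 0.0251) in virgin mice, calls that ended without any 1 of 9 (adjusted p 0.0532 to 0.171) and 4 arrays (adjusted p 0.104 to 0.133). A second, dimmer Wnt9a probe moved little, between -0.10 and 0.15 in these comparisons.

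Wnt11, a ligand of cell movement and branching, was low in P5. It had 0.99 and 0.55 in pregnant P4, -0.03 and 0.0 in P5 and 1.64 and 1.29 in P6, and 1.88 and 2.17 in virgin P4, 0.30 and 0.12 in P5 and 1.78 and 2.22 in P6. P4 and P6 overlapped in virgin mice, and P5 lay below both. P5 was 2.79-fold lower than P6 in pregnant mice (log2 difference -1.48 ± 0.22 (SE), adjusted p = 0.00134) and 3.46-fold lower in virgin mice (log2 difference -1.79 ± 0.22 (SE), adjusted p = 0.000645). P4 exceeded P5 3.51-fold in virgin mice (log2 difference 1.81 ± 0.22 (SE), adjusted p = 0.00114) and 1.73-fold in pregnant mice (log2 difference 0.79 ± 0.22 (SE), adjusted p = 0.0337). The pregnant P4 call ended without any 1 of 5 arrays (adjusted p 0.0512 to 0.195).

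Wnt10b and Wnt16 were slightly higher in P6. Wnt10b, which in mice drives mammary tumours when expressed in excess, had 0.17 and -0.20 in pregnant P6, with -0.63 and -0.52 in P4 and -0.52 and -0.54 in P5. It had 0.06 and 0.03 in virgin P6, with -0.38 and -0.53 in P4 and -0.63 and -0.53 in P5. In virgin mice P5 was below P6 (log2 difference -0.63 ± 0.148 (SE), adjusted p = 0.0203), and without any 1 of these 4 arrays it was not called (adjusted p 0.0774 to 0.118). In pregnant P5 the probe was not well above background on either array, so its level there is only a bound, and no fold is given beside the call against P6 (adjusted p = 0.0349). P4 against P6 gave -0.56 (adjusted p = 0.0433). The calls of pregnant P4 and P5 against P6 ended without any 1 of 11 (adjusted p 0.0637 to 0.205) and 9 arrays (adjusted p 0.0521 to 0.191).

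Wnt16, known from bone and blood development, had 0.69 and 0.81 in pregnant P6, with 0.38 and 0.06 in P4 and -0.03 and 0.09 in P5. P5 was lower than P6 (log2 difference -0.72 ± 0.145 (SE), adjusted p = 0.00655), a call that held throughout. Its size is not firm, and no fold is given. The probe was well above background on only 1 of the 2 pregnant P5 arrays, and the difference ran from -3.15 to -0.66 over the alternatives. P4 against P6 gave -0.53 (adjusted p = 0.0496) and ended without any 1 of 11 arrays (adjusted p 0.066 to 0.253). In virgin mice it had 0.02 and -0.03 in P4, 0.19 and 0.09 in P5 and 0.40 and 0.54 in P6, and no difference was called.

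Wnt1, the ligand found at viral insertions in mouse mammary tumours, stood out in pregnant P5. It had 0.78 and 1.33 there, 0.18 and 0.32 in pregnant P4 and 0.18 and 0.37 in pregnant P6, with 0.06 to 0.44 in the virgin P4, P5 and P6 arrays. Pregnant P4 was 1.75-fold lower than P5 (log2 difference -0.80 ± 0.188 (SE), adjusted p = 0.0164), and P5 1.72-fold higher than P6 (log2 difference 0.78 ± 0.188 (SE), adjusted p = 0.0155). The first was not called without pregnant P4 replicate 1 or pregnant P5 replicate 2 (adjusted p 0.084 to 0.0906), and the second without pregnant P5 replicate 2 or pregnant P6 replicate 1 (adjusted p 0.0812 to 0.0846).

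The other tested ligands were called in no comparison. Wnt7b, with -1.26 to 1.2 over the 14 arrays, had the widest range among them. Wnt3 ran from -0.06 to 1.13 and was well above background on 8 arrays, and Wnt9b ran from -0.19 to 0.82. Wnt7a kept within -0.09 to 0.27 and Wnt8b within -0.32 to 0.06. Wnt2b and Wnt8a, not tested, were well above background on 5 and 1 of the 14 arrays. Wnt3a was called only between the conditions and is given with them.

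**Figure D2:**
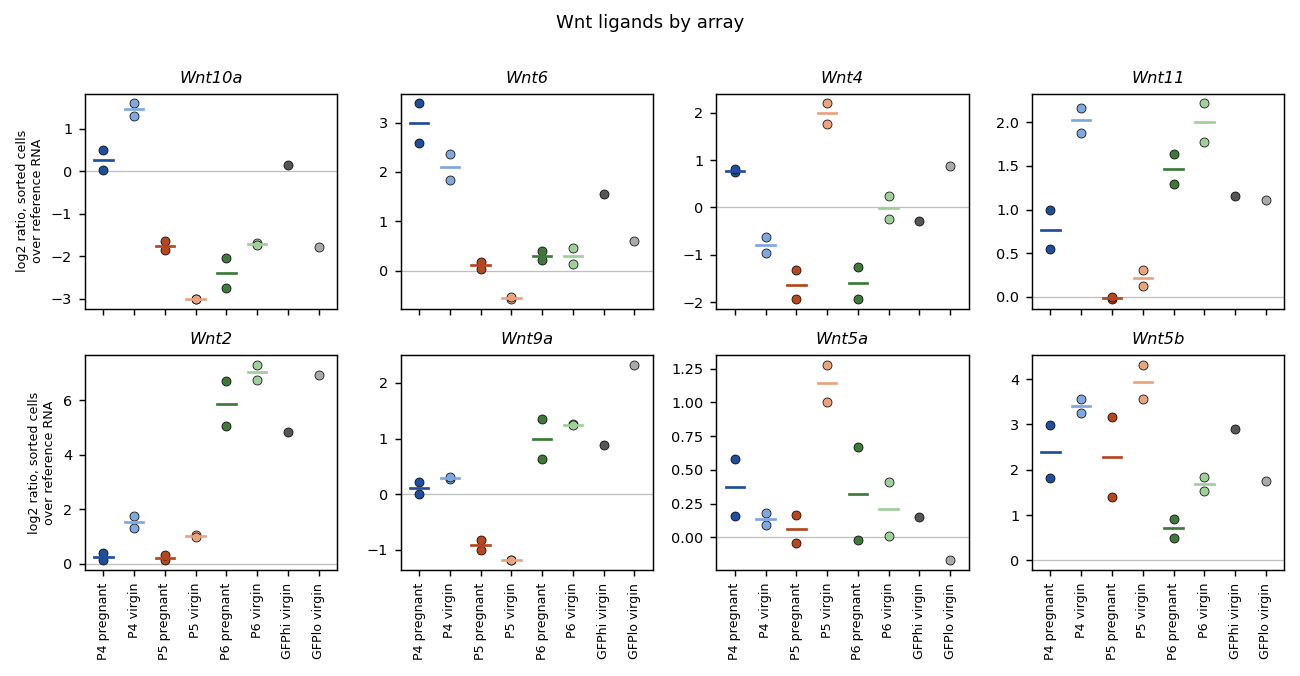
Log2 ratio of 8 Wnt ligands over the common reference (vertical axis), 1 point per array and a bar at the mean of each pair of arrays, for P4, P5 and P6 with pregnant left of virgin, then GFPhi and GFPlo. Wnt10a and Wnt6 peak in P4, Wnt2 and Wnt9a in P6 and GFPlo, and Wnt4 in pregnant P4 and virgin P5.

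Among the Frizzled receptors, the related Fzd1, Fzd2 and Fzd7 were each low in P5, while their highest population differed. Fzd1 had 0.53 and 0.17 in pregnant P4, -2.34 and -2.27 in P5 and 3.0 and 2.95 in P6, and 1.49 and 1.67 in virgin P4, -0.59 and -0.61 in P5 and 3.39 and 3.42 in P6. The 3 populations did not overlap in either condition, in the order P6, P4, P5. P5 was 38.9-fold lower than P6 in pregnant mice (log2 difference -5.28 ± 0.147 (SE), adjusted p = 1.01e-06) and 16-fold lower in virgin mice (log2 difference -4.0 ± 0.147 (SE), adjusted p = 2.2e-06). P4 was 6.3-fold higher than P5 in pregnant mice (log2 difference 2.66 ± 0.147 (SE), adjusted p = 2.47e-05) and 4.53-fold higher in virgin mice (log2 difference 2.18 ± 0.147 (SE), adjusted p = 6.61e-05). Against P6, P4 was 6.18-fold lower in pregnant mice (log2 difference -2.63 ± 0.147 (SE), adjusted p = 1.95e-05) and 3.54-fold lower in virgin mice (log2 difference -1.83 ± 0.147 (SE), adjusted p = 0.000127). Of these, 3 held throughout and the other 3 passed in 21 of 22 alternatives.

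Fzd2 had the same order as Fzd1. It had 0.0 and 0.01 in pregnant P4, -1.34 and -1.23 in P5 and 0.81 and 0.50 in P6, and -0.71 and -0.83 in virgin P4, -2.03 and -1.74 in P5 and -0.03 and 0.30 in P6. P5 was 3.84-fold lower than P6 in pregnant mice (log2 difference -1.94 ± 0.174 (SE), adjusted p = 8.58e-05) and 4.06-fold lower in virgin mice (log2 difference -2.02 ± 0.174 (SE), adjusted p = 8.75e-05). P4 exceeded P5 2.45-fold in pregnant mice (log2 difference 1.29 ± 0.174 (SE), adjusted p = 0.00113) and 2.16-fold in virgin mice (log2 difference 1.11 ± 0.174 (SE), adjusted p = 0.00406). P4 against P6, -0.65 (adjusted p = 0.0456) in pregnant and -0.91 (adjusted p = 0.0115) in virgin mice, was less stable, and ended without any 1 of 9 (adjusted p 0.0551 to 0.213) and 3 arrays (adjusted p 0.0547 to 0.0927). A second Fzd2 probe gave 1.14 for pregnant P4 over P5 and -1.59 for pregnant P5 against P6, and 0.20 (adjusted p = 0.585) for virgin P4 over P5. The fibroblast markers, at a median of 4.59 and 4.69 in P6, moved with Fzd1, Fzd2 and Wnt9a, and their part in these results was not tested.

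Fzd7, described in mice as a receptor of mammary stem cells, was highest in P4 by its brightest probe. Its brightest probe had 3.18 and 2.14 in pregnant P4, -0.69 and -1.76 in P5 and 1.24 and -0.15 in P6, and 1.82 and 1.73 in virgin P4, -0.49 and -0.71 in P5 and 0.33 and 0.17 in P6. By this probe P4 lay above the other populations in both conditions, though virgin P4 over P6, at 1.53, was not called. P4 over P5 was 14.7-fold in pregnant mice (log2 difference 3.88 ± 0.512 (SE), adjusted p = 0.00104), a call that held throughout. In virgin mice it was 5.19-fold (log2 difference 2.37 ± 0.512 (SE), adjusted p = 0.019), and it ended without any 1 of these 4 arrays (adjusted p 0.081 to 0.112). Pregnant P4 exceeded P6 4.33-fold (log2 difference 2.11 ± 0.512 (SE), adjusted p = 0.0296), and pregnant P5 was below P6 (log2 difference -1.77 ± 0.512 (SE), adjusted p = 0.0339). Those 2 calls ended without any 1 of 6 (adjusted p 0.0504 to 0.176) and 8 arrays (adjusted p 0.0502 to 0.213). The second Fzd7 probe, the one shown above, gave 0.77 for pregnant P4 over P5 (adjusted p = 0.00704) and 0.66 in virgin mice (adjusted p = 0.0239). Against P6 its P4 differences were -0.21 and -0.27, of opposite sign to the brightest probe. It shares 84% of its aligned bases with the Fzd2 probe, and Fzd2 was higher in P6, and the part of this likeness was not tested.

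Fzd9 marked P4 by a small, steady margin. It had 0.66 and 1.19 in pregnant P4, 0.23 and 0.38 in P5 and 0.10 and -0.08 in P6, and 1.09 and 1.12 in virgin P4, 0.10 and 0.02 in P5 and 0.02 and -0.10 in P6. All P4 arrays lay above all P5 and P6 arrays. P4 exceeded P6 1.89-fold in pregnant mice (log2 difference 0.92 ± 0.18 (SE), adjusted p = 0.0108) and 2.2-fold in virgin mice (log2 difference 1.14 ± 0.18 (SE), adjusted p = 0.00416), where the virgin call held throughout. The pregnant call ended without pregnant P6 replicate 2 (adjusted p = 0.0608). Over P5, P4 was 1.54-fold higher in pregnant mice (log2 difference 0.62 ± 0.18 (SE), adjusted p = 0.0387) and 2.06-fold higher in virgin mice (log2 difference 1.04 ± 0.18 (SE), adjusted p = 0.00665). These ended without any 1 of 9 arrays (adjusted p 0.0549 to 0.18), and without virgin P4 replicate 2 or virgin P5 replicate 2 (adjusted p 0.0538 to 0.0541).

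Fzd6, which with Fzd3 acts in planar polarity in mice, was low in P6. It had 0.52 and 0.21 in pregnant P4, -0.20 and -0.61 in P5 and -0.69 and -1.09 in P6, and -0.03 and 0.08 in virgin P4, 1.10 and 0.91 in P5 and -0.96 and -1.32 in P6. Its top population was P4 in pregnant and P5 in virgin mice, as for Wnt4. Virgin P5 exceeded P6 4.42-fold (log2 difference 2.14 ± 0.216 (SE), adjusted p = 0.000211), which held throughout. P4 exceeded P6 2.39-fold in pregnant mice (log2 difference 1.25 ± 0.216 (SE), adjusted p = 0.00564) and 2.23-fold in virgin mice (log2 difference 1.16 ± 0.216 (SE), adjusted p = 0.00976), where the virgin call ended without any 1 of 3 arrays (adjusted p 0.0528 to 0.0778). P4 against P5 was 0.77 (adjusted p = 0.0341) in pregnant and -0.98 (adjusted p = 0.0203) in virgin mice. These ended without any 1 of 6 (adjusted p 0.0512 to 0.202) and 4 arrays (adjusted p 0.0722 to 0.13).

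Fzd10 was high throughout in virgin mice and split the populations in pregnant mice. It had 1.16 and 1.75 in pregnant P4, -0.06 and 0.11 in P5 and 2.23 and 2.37 in P6, and 3.52 and 4.05 in virgin P4, 4.60 and 3.68 in P5 and 4.64 and 3.65 in P6. In virgin mice the groups overlapped and no difference was called. In pregnant mice P5 was 4.84-fold lower than P6 (log2 difference -2.27 ± 0.4 (SE), adjusted p = 0.0033) and P4 2.69-fold higher than P5 (log2 difference 1.43 ± 0.4 (SE), adjusted p = 0.0345). The P4 call ended without any 1 of these 4 arrays (adjusted p 0.0556 to 0.156), and the P5 call without the 3 arrays of scan 3 (adjusted p = 0.0644). A second Fzd10 probe gave 0.47 for pregnant P4 over P5 and -0.42 for pregnant P5 against P6.

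The other Frizzled receptors passed in no comparison. Fzd4, which also binds Norrin, spanned 0.24 to 4.15, and Fzd3 spanned -0.16 to 2.17. Fzd5 and Fzd8 stayed within -0.03 to 0.53 and -0.03 to 0.65. The co-receptors Lrp5 (-1.78 to 1.6) and Lrp6 (-0.34 to 0.9) passed in none either. Lrp5 differed between the replicates, which were scanned apart. In pregnant P4, P5 and P6 it had 1.04, 0.35 and 0.88 in replicate 1, and -0.79, -1.47 and -1.10 in replicate 2. In virgin P4, P5 and P6 it had -0.58, 0.22 and 0.12 in replicate 1, and -0.81, -0.47 and -1.78 in replicate 2. The part of the scan was not tested. Porcn ran from -0.7 to 0.83 with no call. Ror2, the co-receptor for Wnt5a, had -0.45 and 0.43 in pregnant P4, 0.94 and 1.23 in P5 and -0.03 and 0.59 in P6. Pregnant P4 was 2.14-fold below P5 (log2 difference -1.10 ± 0.31 (SE), adjusted p = 0.0357), a call that ended without any 1 of 7 arrays (adjusted p 0.0545 to 0.199). A second Ror2 probe gave -0.72 (adjusted p = 0.0212). The co-receptors for both branches were thus read in every population without a stable difference between them.

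Axin2, the feedback target often read as a sign of beta-catenin signalling, was lowest in P5 and highest in GFPlo. It had -0.16 and -0.83 in pregnant P4, -1.53 and -1.83 in P5 and 0.62 and 1.20 in P6, and 0.62 and 1.02 in virgin P4, -0.84 and -0.96 in P5 and 2.73 and 1.58 in P6. P6 lay above P4 and P4 above P5 in both conditions with no overlap of arrays. Virgin P5 was 8.29-fold lower than P6 (log2 difference -3.05 ± 0.39 (SE), adjusted p = 0.000809). In pregnant P5 the probe was not well above background on either array, and P6 was at least 5.65-fold higher (log2 difference -2.59 ± 0.39 (SE), adjusted p = 0.00145). Each array's bound was the higher of the dimmest signal well above background and the probe's own, per channel, open to dye bias as no dyes were swapped. Both calls held throughout. Virgin P4 exceeded P5 3.29-fold (log2 difference 1.72 ± 0.39 (SE), adjusted p = 0.0236), a call that ended without any 1 of these 4 arrays (adjusted p 0.075 to 0.162). P4 against P6 was not called, at -1.40 (adjusted p = 0.0523) in pregnant and -1.33 (adjusted p = 0.071) in virgin mice. The fibroblast markers were high in P6 and GFPlo as Axin2 was, and their part in this result was not tested.

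Tcf7l1, the TCF family member that acts mostly as a repressor, was low in P5. It had 2.57 and 2.81 in pregnant P4, 0.34 and 0.97 in P5 and 1.76 and 2.55 in P6, and 3.04 and 2.84 in virgin P4, -0.16 and -0.37 in P5 and 3.70 and 2.92 in P6. P5 lay below both other populations without overlap. P4 was 4.1-fold higher than P5 in pregnant mice (log2 difference 2.03 ± 0.341 (SE), adjusted p = 0.00344) and 9.22-fold higher in virgin mice (log2 difference 3.21 ± 0.341 (SE), adjusted p = 0.00057). P5 was 2.83-fold lower than P6 in pregnant mice (log2 difference -1.50 ± 0.341 (SE), adjusted p = 0.0119) and 11.9-fold lower in virgin mice (log2 difference -3.57 ± 0.341 (SE), adjusted p = 0.000159). Of these, pregnant P5 against P6 ended without pregnant P5 replicate 1 or pregnant P6 replicate 2 (adjusted p 0.065 to 0.074), and the other 3 held throughout. A second Tcf7l1 probe gave 2.00 and -1.80 for the pregnant and 2.49 and -2.75 for the virgin comparisons.

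Tcf7, the activating TCF family member TCF1, was highest in virgin P4. It had -0.73 and 0.15 there, against -2.62 and -2.47 in virgin P5 and -2.23 and -2.56 in virgin P6. P4 exceeded P5 4.78-fold (log2 difference 2.26 ± 0.376 (SE), adjusted p = 0.00566) and P6 4.3-fold (log2 difference 2.10 ± 0.376 (SE), adjusted p = 0.00798). The P6 difference ended without virgin P4 replicate 2 or virgin P6 replicate 2 (adjusted p 0.0582 to 0.0663). A second Tcf7 probe gave 0.98 (adjusted p = 0.0953) and 0.88 (adjusted p = 0.145). In pregnant mice Tcf7 had -2.50 and -2.56 in P4, -3.19 and -2.89 in P5 and -3.63 and -2.53 in P6, with no call. Ctnnb1, beta-catenin itself, had 1.51 and 1.05 in pregnant P4, 0.15 and -0.67 in P5 and 0.61 and -0.07 in P6. P4 exceeded P5 2.9-fold (log2 difference 1.54 ± 0.307 (SE), adjusted p = 0.00804), which ended without pregnant P4 replicate 1 or pregnant P5 replicate 2 (adjusted p 0.051 to 0.0571). Its other probes gave 1.21 (adjusted p = 0.342) and 0.02 (adjusted p = 0.977). Lef1 (-3.97 to -1.57) and Tcf7l2 (1.05 to 2.65) passed in no comparison.

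**Figure D3:**
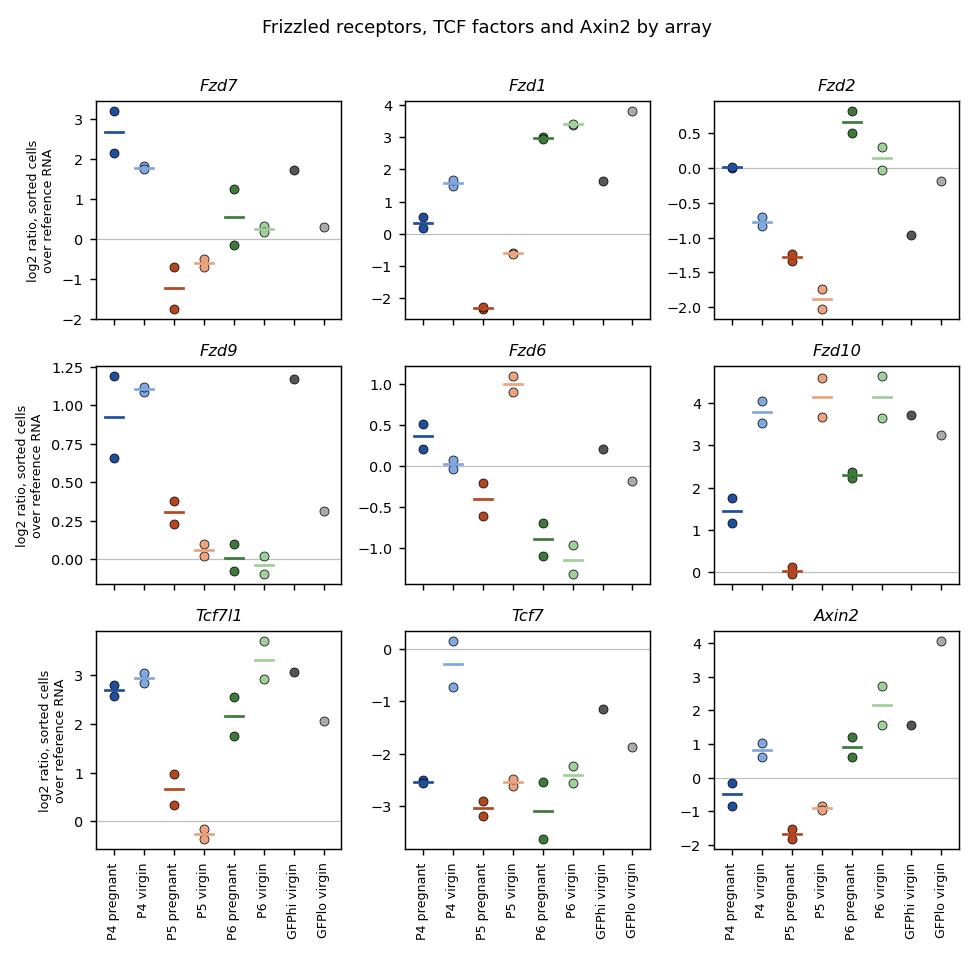
Log2 ratio of 6 Frizzled receptors, Tcf7l1, Tcf7 and Axin2 over the common reference (vertical axis), 1 point per array and a bar at the mean of each pair of arrays, for P4, P5 and P6 with pregnant left of virgin, then GFPhi and GFPlo. Fzd1, Fzd2, Tcf7l1 and Axin2 are low in P5, and Fzd7 (brightest probe) and Fzd9 are high in P4. Fzd10 is lower in the pregnant than in the virgin groups of P4, P5 and P6.

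Put together by population, the pregnant P4 cells were higher than both other populations in the ligands Wnt4, Wnt6 and Wnt10a and in the receptors Fzd6, Fzd7 and Fzd9. That is 6 of 37 members, beside 3.53% of all genes. These are calls of the brightest probes, and the limits given above for single calls apply to all such counts here. Fzd7 over P6, and Fzd6 and Fzd9 over P5, were calls that ended without single arrays. The second Fzd7 probe gave -0.21 for pregnant P4 against P6 (adjusted p = 0.551). In virgin P4 the 4 such members were Wnt6, Wnt10a, Fzd9 and Tcf7, beside 2.33%. P5 was lower than both others in 7 members in each condition, beside 6.85% of all genes in pregnant and 3.55% in virgin mice. Fzd1, Fzd2, Tcf7l1, Wnt9a and Wnt11 were among them both times, with Fzd7 and Fzd10 in pregnant and Axin2 and Wnt10a in virgin mice. P5 was higher than both in Wnt1 in pregnant mice (8.66% of all genes) and in Wnt4, Wnt5a and Fzd6 in virgin mice (3.39%). P6 was higher than both in Wnt2, Wnt9a, Fzd1 and Fzd2 in each condition, joined by Wnt10b and Wnt16 in pregnant mice (4.91% of all genes in pregnant and 4.4% in virgin mice). No member was lower in P4 than in both others (0.702% of all genes in pregnant and 0.579% in virgin mice). None was lower in P6 than in both others in pregnant mice (2.53% of all genes), and Fzd6 was in virgin mice (1.93%).

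Calls between pregnant and virgin mice fell in P4 and P5. Fzd1 and Fzd10 were lower and Fzd2 higher (by weak calls) in pregnant mice in both P4 and P5, while Wnt4 and Wnt10a changed in opposite directions. In P4, 7 of 37 members passed (18.9%), 2 higher and 5 lower in pregnant mice, beside 3.75% of all genes (1.49% higher and 2.25% lower). In P5, 9 passed (24.3%), 4 higher and 5 lower, near the 21.4% of all genes (10.7% higher and 10.7% lower). In P6 none passed by limma, beside 0.186% of all genes (0.0465% higher and 0.14% lower), and 11 had an unadjusted p under 0.05. With the replicate block these counts were 13 members and 4448 of all genes in P4, 19 and 9635 in P5, and 3 and 1022 in P6. In P4 the count rests on the processing: it was 0 with local backgrounds as given, 2 with median centring, and 0 to 8 when 1 array was left out, with the 0 without virgin P4 replicate 2. Replicate 2 of both conditions was scanned together. All 7 and 9 called differences had the same sign within that scan as between the other replicates, which were scanned apart. The calls were made from these same arrays, so the shared sign is no separate support and cannot tell pregnancy from scan.

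Wnt4 rose in pregnant P4 and fell in pregnant P5. P4 had 0.74 and 0.81 in pregnant mice, against -0.63 and -0.96 in virgin mice (2.96-fold, log2 difference 1.56 ± 0.305 (SE), adjusted p = 0.0305). P5 had -1.94 and -1.32 in pregnant mice, against 1.77 and 2.20 in virgin mice (12.3-fold lower, log2 difference -3.62 ± 0.305 (SE), adjusted p = 0.000143). The arrays of the conditions did not overlap in either population. Within scan 2 the differences were 1.76 in P4 and -3.53 in P5, beside 1.37 and -3.72 between the other replicates. The P5 call held throughout, and the P4 call ended without any 1 of these 4 arrays (adjusted p 0.11 to 0.201).

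A test of whether the effect of pregnancy differed among P4, P5 and P6 passed for 4 of 37 members (10.8%, beside 7.95% of all genes). They were Wnt4 (adjusted p = 0.00115), Wnt10a (adjusted p = 0.00859), Fzd6 (adjusted p = 0.0152) and Fzd1 (adjusted p = 0.0175). With the replicate block the count was 14 members and 6398 of all genes. Wnt4 held throughout. Fzd1 ended without any 1 of 5 arrays (adjusted p 0.0518 to 0.0708) and Fzd6 without any 1 of 3 (adjusted p 0.0513 to 0.0797).

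Wnt10a moved the other way round from Wnt4. In P4 it had 0.02 and 0.49 in pregnant mice, against 1.60 and 1.31 in virgin mice (2.3-fold lower, log2 difference -1.20 ± 0.247 (SE), adjusted p = 0.036). In P5 it had -1.65 and -1.85 in pregnant mice, against -3.01 and -3.0 in virgin mice (2.39-fold higher, log2 difference 1.26 ± 0.247 (SE), adjusted p = 0.00832). The gap between P4 and P5 was thus narrower in pregnant mice, at 2.00 against 4.46 in virgin mice. The P4 call ended without any 1 of 10 arrays (adjusted p 0.0541 to 0.243), and the P5 call without virgin P5 replicate 1 or pregnant P5 replicate 1 (adjusted p 0.0511 to 0.0535). Wnt11 also fell in pregnant P4, to 0.99 and 0.55, against 1.88 and 2.17 in virgin P4 (log2 difference -1.25 ± 0.22 (SE), adjusted p = 0.0212). It ended without any 1 of 3 arrays (adjusted p 0.0844 to 0.152).

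Among other ligands, Wnt1 and Wnt3a were higher and Wnt5a lower in pregnant P5. Wnt1 had 0.78 and 1.33 in pregnant P5, against 0.13 and 0.06 in virgin P5 (1.95-fold, log2 difference 0.96 ± 0.188 (SE), adjusted p = 0.0081). Wnt3a, a widely used activator of beta-catenin signalling, had 0.37 and 0.70 in pregnant P5, against -0.07 and -0.05 in virgin P5 (log2 difference 0.60 ± 0.138 (SE), adjusted p = 0.0173). The size of the Wnt3a difference is not firm, and no fold is given. Its probe was well above background on only 1 of the 2 virgin P5 arrays, and the difference ran from 0.33 to 2.21 over the alternatives. The Wnt3a call ended without virgin P5 replicate 1 or 2 or pregnant P5 replicate 2 (adjusted p 0.0738 to 0.0967). Wnt5a was not well above background in pregnant P5, at 0.17 and -0.04, against 1.0 and 1.28 in virgin P5. Its level in pregnant P5 is only a bound, and no fold is given beside the log2 difference (-1.08 ± 0.259 (SE), adjusted p = 0.0195). It ended without any 1 of these 4 arrays (adjusted p 0.0537 to 0.108), and with the scanner's log ratio it was -2.71 (adjusted p = 0.114).

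Among receptors, Fzd10 and Fzd1 fell in pregnant mice in both P4 and P5. Fzd10 had -0.06 and 0.11 in pregnant P5, against 4.60 and 3.68 in virgin P5 (17.3-fold lower, log2 difference -4.11 ± 0.4 (SE), adjusted p = 0.00029), a call that held throughout. In P4 it had 1.16 and 1.75 in pregnant mice, against 3.52 and 4.05 in virgin mice (5.03-fold lower, log2 difference -2.33 ± 0.4 (SE), adjusted p = 0.0195). The P4 call ended without any 1 of 3 arrays (adjusted p 0.0792 to 0.144). In P6 Fzd10 had 2.23 and 2.37 in pregnant mice, against 4.64 and 3.65 in virgin mice, a difference of -1.84 that was not called. A second Fzd10 probe gave -1.99 in P5 (adjusted p = 0.00696), -1.32 in P4 (adjusted p = 0.111) and -1.59 in P6 (adjusted p = 0.201). Fzd1 was 3.26-fold lower in pregnant P5 (log2 difference -1.71 ± 0.147 (SE), adjusted p = 0.000163) and 2.35-fold lower in pregnant P4 (log2 difference -1.23 ± 0.147 (SE), adjusted p = 0.00515), where the P4 call ended without virgin P4 replicate 2 (adjusted p = 0.0553). In P6, Fzd1 had 3.0 and 2.95 in pregnant and 3.39 and 3.42 in virgin mice, a difference of -0.43 (adjusted p = 0.486).

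Fzd2 moved opposite to Fzd1, and was higher in pregnant P4 (log2 difference 0.78 ± 0.174 (SE), adjusted p = 0.0493) and pregnant P5 (log2 difference 0.60 ± 0.174 (SE), adjusted p = 0.0412). These calls were weak: they ended without any 1 of 10 (adjusted p 0.0536 to 0.264) and 8 arrays (adjusted p 0.0567 to 0.248). A second Fzd2 probe gave 1.09 in P4 (adjusted p = 0.0086) and 0.15 in P5 (adjusted p = 0.554). The P5 difference of the brightest probe ran from 0.08 to 0.75 over the alternatives. Fzd6 fell in pregnant P5, with -0.20 and -0.61, against 1.10 and 0.91 in virgin P5 (2.66-fold, log2 difference -1.41 ± 0.216 (SE), adjusted p = 0.00258), and in P4 its difference was 0.34 (adjusted p = 0.531). Tcf7 fell in pregnant P4, with -2.50 and -2.56, against -0.73 and 0.15 in virgin P4 (4.73-fold, log2 difference -2.24 ± 0.376 (SE), adjusted p = 0.0181). It ended without any 1 of 3 arrays (adjusted p 0.0749 to 0.127), and a second Tcf7 probe gave -0.12.

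Other cell markers moved with pregnancy in P5 as well. Of 14 luminal markers, 0 were higher and 10 lower in pregnant P5, with a median difference of -2.69. The median of 6 skeletal muscle markers was 0.48 in pregnant and 3.05 in virgin P5, and all 6 were lower in pregnant P5. In P4 the adipocyte median was 3.59 in pregnant and 0.59 in virgin mice. The part of these shifts in the Wnt4, Wnt5a, Wnt10a and Fzd6 results was not tested.

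**Figure D4:**
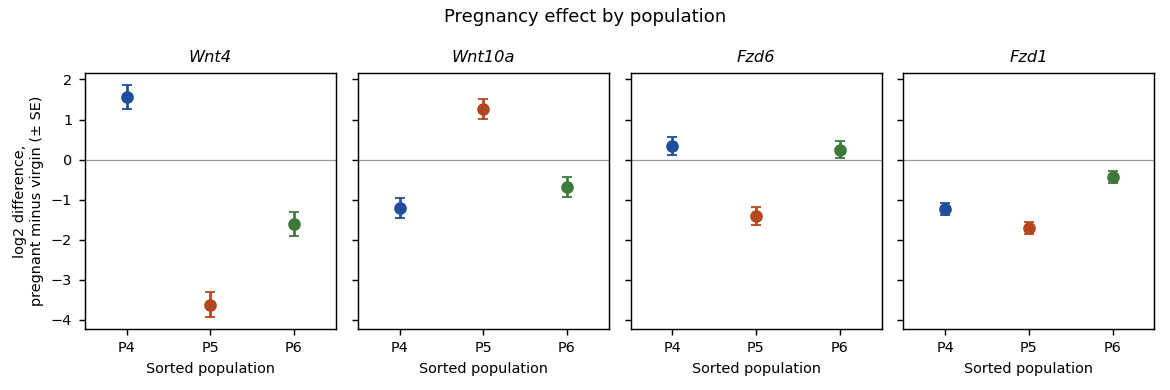
Log2 difference, pregnant minus virgin (vertical axis), of the 4 members whose response differed among populations, in P4, P5 and P6, with bars of 1 SE of the fit on 12 arrays. Wnt4 lies above 0 in P4 (1.56) and below 0 in P5 (-3.62), Wnt10a the other way (-1.20 and 1.26), and Fzd1 below 0 in both (-1.23 and -1.71).

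The labels also divide all arrays into cells enriched for MaSC (P4 and GFPhi) and cells depleted of them (P5, P6 and GFPlo), over 14 arrays. Both GFP arrays are of virgin mice. The pregnant comparison is therefore P4 against P5 and P6 pooled, on the same arrays as the comparisons above, and is no separate support. Each side was fitted with 1 mean, so the SE and p-values here also take in differences between the populations pooled. In pregnant mice 6 of 37 members were higher in the enriched cells and none lower (16.2%, beside 2.49% of all genes, 2.25% higher and 0.237% lower). They were Fzd7 (log2 difference 3.0 ± 0.632 (SE), adjusted p = 0.0272), Wnt6 (log2 difference 2.79 ± 0.359 (SE), adjusted p = 0.00109), Wnt4 (2.39 (adjusted p = 0.0483)), Wnt10a (2.32 (adjusted p = 0.0337)), Ctnnb1 (1.27 (adjusted p = 0.0356)) and Fzd9 (0.77 (adjusted p = 0.0362)). In virgin mice 4 were higher and none lower (10.8%, beside 1.62% of all genes, 1.52% higher and 0.106% lower): Wnt10a (log2 difference 3.26 ± 0.428 (SE), adjusted p = 0.00165), Wnt6 (log2 difference 1.91 ± 0.303 (SE), adjusted p = 0.00634), Tcf7 (log2 difference 1.77 ± 0.303 (SE), adjusted p = 0.00977) and Fzd9 (log2 difference 1.06 ± 0.144 (SE), adjusted p = 0.00222). Wnt10a, Wnt6 and Fzd9 were thus higher in enriched cells in both conditions. Other probes did not all pass. In pregnant mice the second Fzd7 probe gave 0.28 (adjusted p = 0.832). The other Ctnnb1 probes gave 1.11 (adjusted p = 0.571) and -0.18 (adjusted p = 0.844). In virgin mice the second Tcf7 probe gave 0.71 (adjusted p = 0.225). The second Wnt6 probe gave 4.38 (adjusted p = 0.000559) in pregnant and 2.92 (adjusted p = 0.00359) in virgin mice. In virgin mice Wnt10a and Fzd9 passed in all 24 alternatives, while Wnt6 and Tcf7 ended without virgin P4 replicate 2 (adjusted p = 0.053 and adjusted p = 0.054).

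The pregnant calls were less firm. With slide as a block none of the 6 passed (adjusted p 0.174 to 0.619), and without scan 3 only Wnt6 did (adjusted p 0.0828 to 0.698 for the others). Fits without 1 array ended Wnt4 in 11 of 14 cases (adjusted p 0.0503 to 0.282), Fzd9 in 10 (adjusted p 0.0521 to 0.37), Ctnnb1 in 8 (adjusted p 0.0515 to 0.394), Wnt10a in 5 (adjusted p 0.0568 to 0.271) and Fzd7 in 3 (adjusted p 0.0711 to 0.332). With the replicate block Wnt10a was at 2.32 (adjusted p = 0.075) and Wnt4 at 2.39 (adjusted p = 0.0957).

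GFPhi and GFPlo, with 1 array each, allow no test. Of 37 members, 9 differed by more than 2-fold, 4 higher and 5 lower in GFPhi, beside 6.34% of 23625 genes. The 4 higher ones were Wnt10a (0.14 in GFPhi, against -1.78 in GFPlo), Fzd7 (1.72, against 0.29), Wnt5b (2.9, against 1.76) and Tcf7l1 (3.06, against 2.06). Short of 2-fold, GFPhi was also above GFPlo in Wnt6 (1.56, against 0.59) and Fzd9 (1.17, against 0.31). The same held for Tcf7 (-1.15, against -1.86) and Fzd6 (0.21, against -0.18). On the other side, Wnt2 had 4.83 in GFPhi, against 6.93 in GFPlo, and Fzd1 had 1.63, against 3.80. Axin2 had 1.57 in GFPhi, against 4.06 in GFPlo, and Wnt9a had 0.88, against 2.33. GFPlo was more than 2-fold above GFPhi in these 4 and in Wnt4. Wnt4 had -0.28 in GFPhi, against 0.88 in GFPlo, the same direction as virgin P4 against P5 and opposite to pregnant P4 against P5. GFPhi held more Wnt2 than virgin P4 (4.83, against 1.32 and 1.77), beside a fibroblast median of 0.98, against -0.82 in virgin P4.

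A further list held 72 other genes of the Wnt pathway (secretion, R-spondin axis, antagonists, cytoplasmic, nuclear and planar polarity genes and targets), of which 70 were tested. In pregnant mice 23 were higher and 4 lower in P4 than in P5 (38.6%, beside 22.6% of all genes), and in virgin mice 20 were higher and none lower (28.6%, beside 11.4%). The 3 largest differences of the list in virgin mice were Wif1, a secreted inhibitor that binds Wnts (5.27 ± 0.249 (SE, adjusted p = 1.93e-05)), Nkd1, a feedback inhibitor (5.27 ± 0.463 (SE, adjusted p = 0.000216)), and Sostdc1, a secreted antagonist (4.85 ± 0.364 (SE, adjusted p = 0.000105)). In pregnant mice they were Sostdc1 (4.81 ± 0.364 (SE, adjusted p = 8.67e-05)), Nkd1 (4.03 ± 0.463 (SE, adjusted p = 0.000544)) and Apcdd1, a membrane inhibitor (3.53 ± 0.234 (SE, adjusted p = 5.55e-05)). Each of these was higher in P4.

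Between P5 and P6, 5 of these genes were higher and 22 lower in pregnant P5 (38.6%, beside 26.9% of all genes), and 6 were higher and 21 lower in virgin P5 (38.6%, beside 16.1%). Reck, a cofactor of Wnt7 signalling, differed by -4.84 ± 0.412 (SE, adjusted p = 6.41e-05) in pregnant and -4.45 ± 0.412 (SE, adjusted p = 0.000134) in virgin mice. Sfrp4, a secreted Frizzled-related antagonist, differed by -4.78 ± 0.278 (SE, adjusted p = 1e-05) and -5.68 ± 0.278 (SE, adjusted p = 5.74e-06), and Apcdd1 by -4.51 ± 0.234 (SE, adjusted p = 6.22e-06) and -4.70 ± 0.234 (SE, adjusted p = 6.07e-06). All 3 were lower in P5. Between P4 and P6, 8 were higher and 9 lower in pregnant P4 (24.3%, beside 12.1% of all genes), with Sfrp2 at -5.36 ± 0.413 (SE, adjusted p = 8.09e-05), Sostdc1 at 5.32 ± 0.364 (SE, adjusted p = 4.56e-05) and Sfrp4 at -5.08 ± 0.278 (SE, adjusted p = 1.79e-05). In virgin mice 11 were higher and 9 lower in P4 (28.6%, beside 10.3%), with Wif1 at 5.25 ± 0.249 (SE, adjusted p = 1.23e-05), Sfrp4 at -5.10 ± 0.278 (SE, adjusted p = 2.31e-05) and Celsr1, a planar polarity cadherin, at 4.66 ± 0.493 (SE, adjusted p = 0.000487). Of 11 secreted antagonists tested, 2 were higher and 3 lower in P4 than in P6 of pregnant mice, with a median difference of 0.05. In virgin mice 3 were higher (Wif1, Sostdc1 and Dkk3) and 4 lower (Sfrp1, Sfrp2, Sfrp4 and Dkk2), with a median of -0.02.

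In pregnant P4, 6 of these genes were lower than in virgin P4 and none was higher (8.57%, beside 3.75% of all genes). The largest difference was that of Lgr5, an R-spondin receptor and stem cell marker (-3.83 ± 0.16 (SE, adjusted p = 5.81e-05)), followed by Tnfrsf19, a TNF receptor family target (-2.79 ± 0.493 (SE, adjusted p = 0.0216)), and Nkd2, a relative of Nkd1 (-2.77 ± 0.405 (SE, adjusted p = 0.0106)). In P5, 6 rose and 11 fell (24.3%, near the 21.4% of all genes), with Celsr1 lower (-3.73 ± 0.493 (SE, adjusted p = 0.00127)) and the antagonist Sfrp1 (3.29 ± 0.277 (SE, adjusted p = 0.000143)) and the R-spondin receptor Lgr4 (2.86 ± 0.395 (SE, adjusted p = 0.00159)) higher. In P6 Bambi, a target and co-receptor, was the 1 gene called (-1.26 ± 0.129 (SE, adjusted p = 0.0103)), or 1.43% beside 0.186% of all genes. In the enriched against the depleted cells, 3 were higher in pregnant mice (4.29%, beside 2.49% of all genes), namely Sostdc1 (5.06 ± 0.342 (SE, adjusted p = 1.77e-05)), Bambi (3.21 ± 0.4 (SE, adjusted p = 0.00083)) and Wif1 (3.04 ± 0.317 (SE, adjusted p = 0.000271)). In virgin mice 4 were higher (5.71%, beside 1.62%), led by Wif1 (4.85 ± 0.268 (SE, adjusted p = 1.44e-06)), Sostdc1 (4.69 ± 0.288 (SE, adjusted p = 3.26e-06)) and Lgr5 (3.33 ± 0.277 (SE, adjusted p = 3.95e-05)). None was lower in either condition.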

How the data were processed

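The wild-type populations had 2 arrays each and the GFP populations 1 each. Per the labels' protocols, dissociated cells were sorted and their total RNA was labelled with Cy5 against a Cy3 reference. Per the file headers, spots were read with Agilent Feature Extraction 9.5.3.1. The deposited scanner files hold mean and background intensity per spot, flags without a unit, and the software's own log10 ratio, per the file headers. The deposited series table holds log2 ratios, found to be the scanner ratio on another scale (r 0.99 to 1).

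Values here were computed in R 4.3.3 with limma 3.58.1: normexp (offset 50), loess within arrays, spots of a probe averaged, control and outlier spots left out. After seeing the data, local backgrounds that the scanner software had marked as outliers (7 to 370 in a channel of an array) were set to the median background. A probe had to be well above background on both arrays of at least 1 of the 6 replicated groups (34805 did), and the brightest stood for its gene. Names came from RefSeq by accession (22951 probes), symbol (6659) or synonym (3109), and 8455 kept the file's name.

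Population and pregnancy comparisons used 1 limma fit on 12 arrays, and enriched against depleted cells a fit on all 14, with Benjamini-Hochberg adjustment over all genes and a threshold of 0.05. The differences of replicate 2 minus replicate 1 correlated between groups, at 0.304 to 0.679 over 3 pairs of virgin groups and 0.63 to 0.688 over 3 pairs of pregnant groups. Across conditions they gave -0.208 to 0.146 over 9 pairs. Within a condition the replicate number coincides with the scan, so paired samples and a shared scan cannot be told apart. The main fit took no account of either, and the replicate block was run as an alternative. Members and lists were chosen with earlier results of these data known. Every member is named, and of the other Wnt genes the 3 largest called differences per comparison. Intensity over background and the number of arrays limit the precision.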

Additional observations from a re-analysis of the deposited data

Results flagged for a closer look

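A test of the difference itself marked 4 members whose change with pregnancy was not the same in P4, P5 and P6. For Wnt4 (adjusted p = 0.00115) the log2 differences, pregnant minus virgin, were 1.56 in P4, -3.62 in P5 and -1.60 in P6. For Wnt10a (adjusted p = 0.00859) they were -1.20, 1.26 and -0.69. For Fzd6 (adjusted p = 0.0152) they were 0.34, -1.41 and 0.25. For Fzd1 (adjusted p = 0.0175) they were -1.23, -1.71 and -0.43.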

How the results depend on the processing

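Of 105 gene calls, 35 passed in every alternative and none changed sign in any. Median centring in place of loess kept 53, the scanner software's ratio 86 and the authors' deposited table also 86. The number kept was 104 with no filter on dim probes, 96 with the mean over probes, 90 with slide as a block, 100 with scan as a block and 103 with the replicate block. Backgrounds as given kept 72, and leaving out scan 3 kept 83. Those last settings were chosen after seeing the data.

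With median centring the counts of called members were 8 for virgin P4 against P5, 4 for virgin P4 against P6, 7 for pregnant P5 against P6, 2, 4 and 0 for pregnant against virgin P4, P5 and P6, 2 and 3 for virgin and pregnant enriched cells, and 1 for the test across populations. Its splits, higher and lower, were 4 and 5 for virgin P5 against P6, 6 and 2 for pregnant P4 against P6, 1 and 1 for pregnant against virgin P4, and 0 and 4 for P5. With the scanner's log ratio the splits were 3 and 11 for pregnant P5 against P6 and 3 and 6 for pregnant against virgin P5. With the replicate block the counts were 17 for virgin P4 against P6, 20 for pregnant P5 against P6, 13, 19 and 3 for pregnant against virgin P4, P5 and P6, and 14 for the test across populations. It ended 2 calls, Wnt4 and Wnt10a in pregnant enriched cells. With scan as a block they were 17, 20 and 14 for the first, second and last of these, and with slide as a block 17 for virgin P4 against P6, 0 for pregnant enriched cells and 11 for the test across populations. Pregnant against virgin P4 gave 3 with the scanner's ratio and with the series table, 0 with backgrounds as given and 1 without scan 3. P6 gave 1 with the series table. Pregnant enriched cells gave 3 with backgrounds as given and 1 without scan 3. The causes were not tested.

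Without 1 array, counts ran from 9 to 15 for virgin P4 against P5 (lowest without virgin P4 replicate 2 or virgin P5 replicate 2), 5 to 10 for P4 against P6 (virgin P4 replicate 2) and 10 to 14 for P5 against P6. In pregnant mice they ran from 8 to 16 (pregnant P5 replicate 2), 7 to 11 (any virgin P4 or P5 array) and 9 to 13. For pregnant against virgin they ran from 0 to 8 in P4 (virgin P4 replicate 2), 5 to 11 in P5 (virgin P5 replicate 1) and 0 to 1 in P6. They ran from 2 to 5 for virgin enriched cells (virgin P4 replicate 2), 1 to 5 for pregnant ones (pregnant P4 replicate 2) and 2 to 6 for the test across populations (either virgin P5 array). Of 43 checks of called differences on a member's other probes, 38 had the same sign, 21 passed too and none passed with the opposite sign.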
